A study of Mus musculus with 6 samples.

Results

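The 35 mouse genes described here make fatty acids, join them into triglyceride, load triglyceride onto lipoproteins, coat lipid droplets or release fatty acids from stored and circulating fat. They were chosen as a named list of pathway genes, with earlier results of these data known. They were looked up by symbol in a table of read counts for 40824 genes. All 35 have a row in the table. They fall into 8 roles: supply of acetyl-CoA and NADPH, fatty acid synthesis, elongation and desaturation, regulators, glycerolipid synthesis, lipidation of very low density lipoprotein (VLDL), droplet proteins and lipases.

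All libraries hold nuclei labelled as hepatocyte, from female C57BL/6J mice of wild-type genotype mated at about 8 weeks of age, and the labels name no transgene or drug in any group. The stages are G0 and G14.5, named by day of gestation, and P7L, day 7 postpartum with lactation. Each stage has 1 library from a preparation labelled perfusion and 1 from a preparation labelled liver tissue, and the 6 libraries hold 1567 nuclei (184 to 308 each) sequenced by Smart-seq3xpress, a plate-based full-length method. The labels do not say which or how many animals gave each library. The p-values of the main fit thus measure only the spread between these 6 libraries that terms for stage and preparation leave, which may be technical. Libraries held 226030591 to 379767336 reads, with medians of 731494.5 to 1191576 reads per nucleus, and no nucleus name occurred in more than 1 library. Library levels of the listed and other pathway genes are read counts in counts-per-million (CPM), scaled by the trimmed mean of M values (TMM). Levels of marker genes, of single nuclei and of subsets of nuclei are plain CPM, without TMM scaling. The TMM factors ran from 0.909 (G14.5 perfusion) to 1.08 (P7L liver tissue), so plain and scaled levels differ. Each pair of values gives the perfusion library before the liver tissue library.

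The liver turns surplus carbohydrate into fat. Citrate leaves the mitochondrion, is split into acetyl-CoA, and is carboxylated, built into palmitate, elongated, desaturated and esterified to glycerol. The triglyceride then sits in cytosolic droplets or leaves the cell in VLDL. The transcription factors encoded by Srebf1 and Mlxipl are known to drive many of these genes in response to insulin and to glucose metabolites. In lactation the mammary gland also makes and imports much fat, so maternal liver and gland share the supply of substrates.

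Of the 35 genes, 31 had enough reads to be tested. Agpat2, an acyltransferase of phosphatidic acid synthesis, and Lpin2, a phosphatidate phosphatase, were listed at 0 reads in all 6 libraries. Both lie wholly inside the bodies of other genes of the table, Agpat2 inside Egfl7 and Gm20532 and Lpin2 inside Gm26561. Of the 917 protein-coding genes in that position, 850 (92.7%) had 0 reads, against 1947 of 13039 (14.9%) of those that overlap no other gene body, so the zeros give no level for these genes. The other untested genes were the desaturase gene Scd2, with 2 to 28 reads per library, and Elovl3, an elongase gene of very long fatty acids. Elovl3 had 11 and 214 reads at G0, 0 in both G14.5 libraries and 92 and 80 at P7L, of which 79.3% and 90.0% lay in 1 nucleus. At G14.5 the 0 of 301 and 0 of 224 nuclei allow shares of up to 0.997% and 1.34% of nuclei with a read (3 counts of the total, counting error only).

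Across genes, levels were compared per kilobase of gene body outside other genes, as means of the 6 libraries. On that scale Thrsp led with 447 CPM per kb, followed by Scd1 at 19.9, Dgat2 at 15.8, Mlxipl at 10.6 and Plin2 at 9.74 CPM per kb. Genes near the bottom were the adipose-type droplet coat gene Plin4 at 0.335, Lpl at 0.0811, Mogat1 at 0.0432 and Cidea at 0.00478 CPM per kb. Thrsp also ranked first on the authors' own length-scaled values, at 503 against 167 for Lipc. Lipc ranked second there and seventh here, and Scd1 ranked eleventh there and second here. Whether reads were counted over exons or whole gene bodies is not given in the sources used here, so the order depends on the length chosen.

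**Figure D1:**
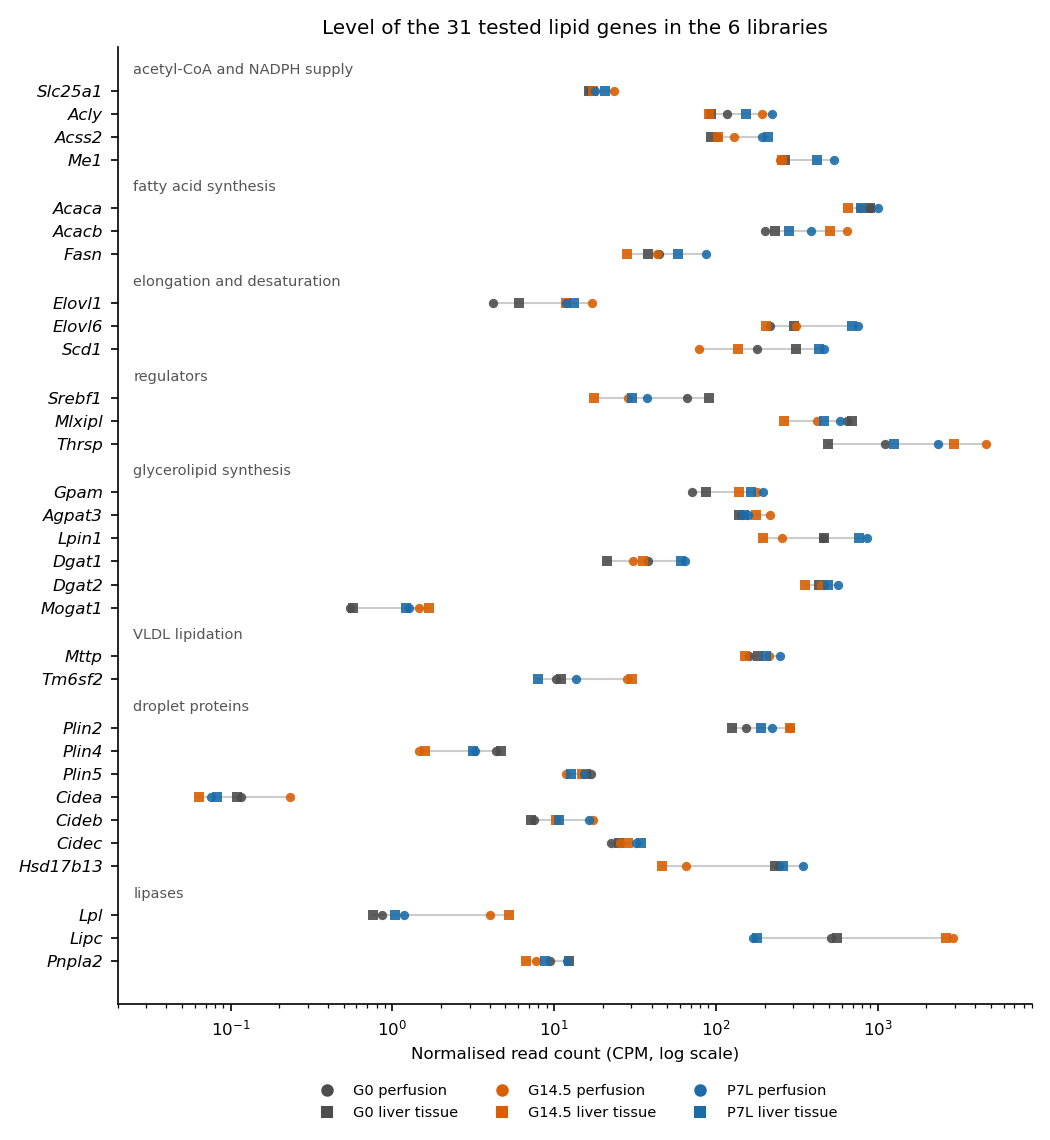
Normalised read count (CPM, log scale) of the 31 tested lipid genes in each library, grouped by role; colours are stages, circles perfusion and squares liver tissue. The 2 orange G14.5 points of Thrsp, Lipc and Tm6sf2 sit to the right of those genes' other points, and those of Hsd17b13 and Lpin1 to the left.

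Promoter sequences are shown for 4 genes that changed at G14.5: Lipc, which was higher, and Hsd17b13, Lpin1 and Mlxipl, which were lower. They are RefSeq windows on GRCm38.p6, printed 5′ to 3′ on the gene's strand, from up to 250 bases before the start to the last base before the annotated transcript. Capitals mark a match to the CCAAT box (CCAAT) or the E-box (CACGTG), each searched on both strands.
Lipc, chr9:70952227-70952471, minus strand: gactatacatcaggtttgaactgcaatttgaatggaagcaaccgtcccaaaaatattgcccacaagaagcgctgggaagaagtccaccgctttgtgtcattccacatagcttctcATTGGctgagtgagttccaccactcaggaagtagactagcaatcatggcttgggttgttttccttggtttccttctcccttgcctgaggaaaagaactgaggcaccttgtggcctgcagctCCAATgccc
Hsd17b13, chr5:103977411-103977638, minus strand: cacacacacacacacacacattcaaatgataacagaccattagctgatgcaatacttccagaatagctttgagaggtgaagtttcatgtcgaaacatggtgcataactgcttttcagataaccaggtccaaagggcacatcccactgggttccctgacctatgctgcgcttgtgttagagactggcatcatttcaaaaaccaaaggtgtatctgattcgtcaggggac
Lpin1, chr12:16610967-16611216, minus strand: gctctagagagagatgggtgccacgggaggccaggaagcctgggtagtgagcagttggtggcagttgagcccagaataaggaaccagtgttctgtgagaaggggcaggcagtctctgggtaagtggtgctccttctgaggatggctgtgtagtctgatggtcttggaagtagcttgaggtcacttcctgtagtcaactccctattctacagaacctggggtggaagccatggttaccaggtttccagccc
Mlxipl, chr5:135089640-135089889, plus strand: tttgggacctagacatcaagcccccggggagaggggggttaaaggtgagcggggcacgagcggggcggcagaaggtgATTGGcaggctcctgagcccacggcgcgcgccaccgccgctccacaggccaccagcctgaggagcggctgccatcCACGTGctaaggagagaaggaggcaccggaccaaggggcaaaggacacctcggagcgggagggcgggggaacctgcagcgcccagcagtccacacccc

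The Lipc window holds CCAAT matches at 135 to 131 bases before the start on the minus orientation and at 14 to 10 bases before it. Mlxipl has a CCAAT match on the minus orientation at 173 to 169 bases and an E-box at 98 to 93 bases before its start, and the windows of Hsd17b13 and Lpin1 hold no match to either. Of the 32851 windows of the RefSeq table, searched over the full 250 bases, 33.8% held CCAAT and 6.02% the E-box. The table has 38 windows for 27 of the lipid genes. CCAAT was in 17 of them and the E-box in 3, those of Lpin2, Mlxipl and Slc25a1. The sterol regulatory element TCACNCCAC was in 1 window (1.05% of all windows). That window belongs to Mlxipl but is not the one printed above, which holds no such match. The STAT5 motif TTCNNNGAA was in 0 of 38 (7.02% of all windows). A direct repeat bound by PPAR dimers (DR1), searched as an exact sequence of 13 letters, was in 0 of 38. Only 11 of the 32851 windows (0.0335%) held it, so this 0 tells nothing about the lipid genes.

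At G14.5, 13 of the 31 tested genes differed from G0, 8 higher and 5 lower (edgeR quasi-likelihood test, Benjamini-Hochberg adjusted p under 0.05 over 15015 genes). That is 41.9% of those tested, against 11.9% of all genes tested (6.93% higher and 5.01% lower). Because the list was chosen with earlier results of these data known, such shares describe the list and do not test the pathway. The median log2 fold change was 0.21 over the tested lipid genes and -0.01 over all genes. The number called was 8 when the G14.5 perfusion library was left out (5.43% of all genes) and 8 when the G14.5 liver tissue library was (4.4% of all genes). It was 11 with any other library left out (12.3%, 12.6%, 9.17% and 9.2% of all genes without G0 perfusion, G0 liver tissue, P7L perfusion and P7L liver tissue). Higher were Thrsp, Lipc, Lpl, Elovl1, Tm6sf2, Acacb, Plin2 and Gpam, and lower were Hsd17b13, Srebf1, Scd1, Lpin1 and Mlxipl.

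At P7L, 7 of 31 differed from G0, 6 higher (Elovl6, Thrsp, Gpam, Acss2, Me1 and Lpin1) and 1 lower (Lipc). That is 22.6%, against 2.92% of all genes tested (1.56% higher and 1.36% lower), with a median log2 fold change of 0.47 for the lipid genes and 0.01 for all genes. With the P7L perfusion library left out 1 of the 31 passed (0.306% of all genes), and with the P7L liver tissue library left out 3 did (0.5% of all genes). Without G0 perfusion 7 passed (3.1% of all genes), without G0 liver tissue 9 (4.06%), and without G14.5 perfusion or liver tissue 8 each (2.88% and 2.68%). None of the 7 calls held under every alternative tried.

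Between P7L and G14.5, 11 of 31 differed, 7 higher at P7L (Hsd17b13, Scd1, Lpin1, Elovl6, Fasn, Me1 and Acss2) and 4 lower (Lipc, Tm6sf2, Thrsp and Acacb). That is 35.5%, against 9.26% of all genes tested (4.2% higher and 5.06% lower), with medians of 0.31 and 0.00. The number called was 7 of 31 with the G14.5 perfusion library left out (4.25% of all genes), 7 with G14.5 liver tissue out (3.87%), 7 with P7L liver tissue out (3.36%) and 5 with P7L perfusion out (3.0%). It was 16 with G0 perfusion out (15.7%) and 16 with G0 liver tissue out (15.2%). These comparisons share libraries, so their counts are not independent. In every one of the 13, 7 and 11 calls the direction was the same in both preparations. The test favours genes whose 2 preparations agree, so this is no separate support. Over all 31 tested genes the direction was the same for 26, 28 and 26. Altogether 17 genes were called in at least 1 comparison, 3 of them (Thrsp, Lpin1 and Lipc) in all 3.

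With the nucleus that held most reads of each gene taken out of every library, 14, 10 and 12 of the 31 were called, against 17.7%, 7.25% and 13.1% of all genes in the same order of comparisons. A fit with no term for preparation called 13, 6 and 10, against 14.0%, 3.85% and 10.6%. At G14.5 against G0, 7.51% of all genes were called on the authors' values with a pseudocount of 1. At P7L against G0, the share of all genes called was 0.502% with filterByExpr alone, 0.91% with no filter and 13.7% by DESeq2. On the authors' values it was 0.0266% there with a pseudocount of 1 and 1.37% with 0.1.

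**Figure D2:**
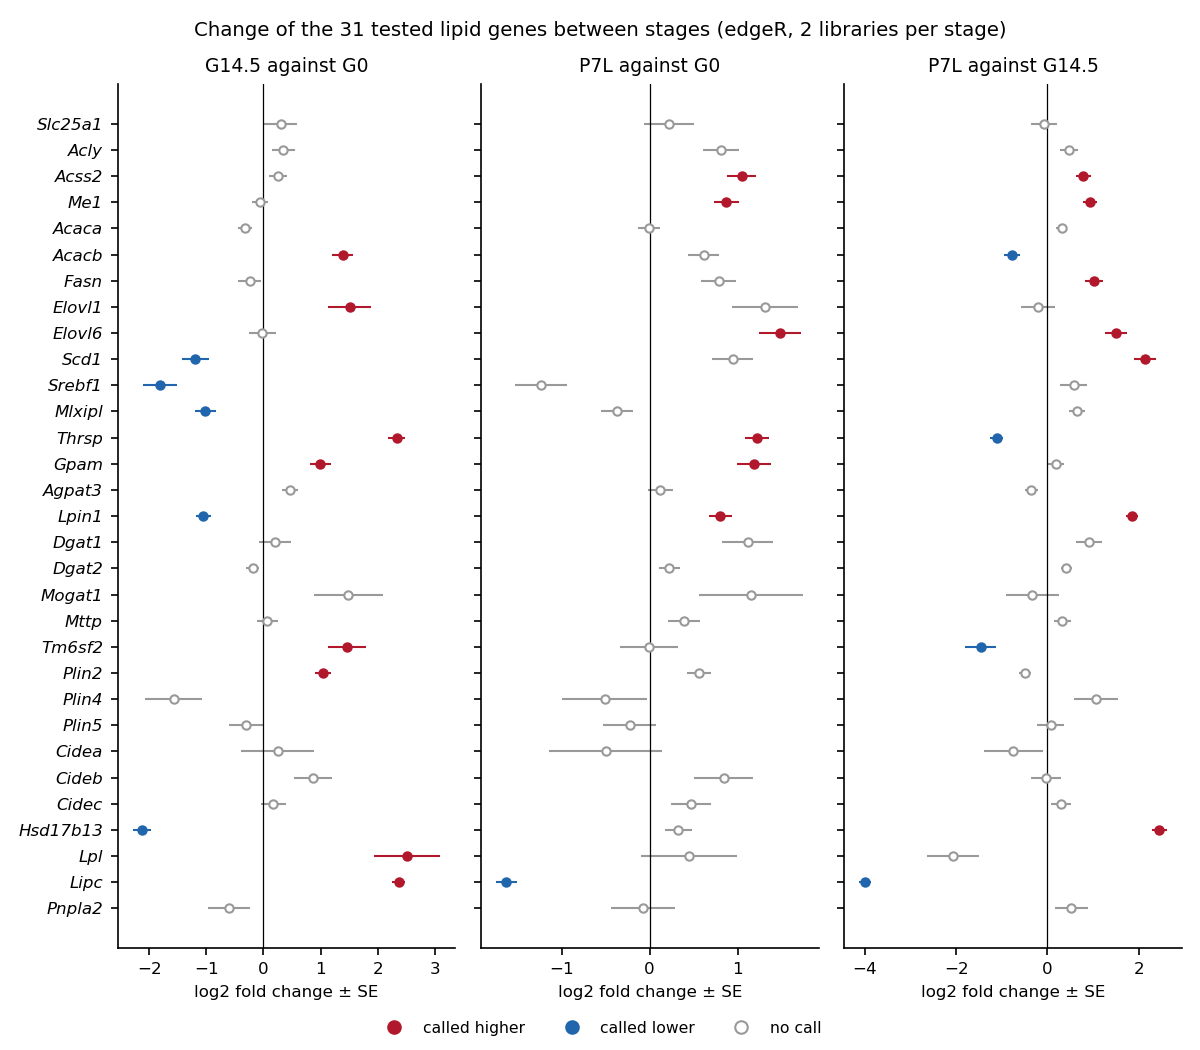
Log2 fold change with its standard error for the 31 tested genes in the 3 stage comparisons, each with its own horizontal scale; filled red points were called higher, filled blue points lower, and open grey points were not called. Lipc is red at 2.37 for G14.5 against G0 and blue at -1.63 and -3.99 in the other panels.

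Among the regulators, Thrsp rose at G14.5 while Srebf1 and Mlxipl fell. Thrsp encodes a small nuclear and cytosolic protein (Spot 14) that promotes fatty acid synthesis and responds to thyroid hormone and carbohydrate feeding. It had 1110.2 and 494 CPM in the G0 libraries, 4656 and 2979.7 CPM in those of G14.5 and 2367 and 1259.9 CPM in those of P7L. The stages did not overlap, with G14.5 above P7L and P7L above G0, and the perfusion library was the higher of the pair at each stage. Its log2 fold change was 2.33 ± 0.14 for G14.5 against G0 (SE, 5.03-fold, edgeR adjusted p = 0.000291), 1.22 ± 0.14 for P7L against G0 (edgeR adjusted p = 0.0122) and -1.11 ± 0.14 for P7L against G14.5 (edgeR adjusted p = 0.00391). DESeq2 called none of these (adjusted p = 0.530 for P7L against G14.5, 0.497 for P7L against G0 and 0.0814 for G14.5 against G0). Both P7L calls were also lost in a fit with no term for preparation. P7L against G0 was lost, too, without the P7L perfusion library (edgeR adjusted p = 0.0725) and on the authors' values with a pseudocount of 1.

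Srebf1 encodes the sterol regulatory element binding protein that drives lipogenic genes under insulin. It had 66.4 and 91.04 CPM in the G0 libraries, 28.5 and 17.6 CPM in those of G14.5 and 37.6 and 30.4 CPM in those of P7L. Both G14.5 and both P7L libraries lay below both G0 libraries, but only G14.5 against G0 passed the test (-1.81 ± 0.30 SE on the log2 scale, edgeR adjusted p = 0.0122; 3.50-fold lower). The change at P7L was -1.24 ± 0.30 (SE, edgeR adjusted p = 0.0768). Mlxipl encodes ChREBP, the carbohydrate response element binding protein. It had 651 and 692 CPM in the G0 libraries, 419 and 263 CPM in those of G14.5 and 587 and 466 CPM in those of P7L, lowest at G14.5 in each preparation (-1.02 ± 0.18 SE on the log2 scale, edgeR adjusted p = 0.0151). With the G14.5 liver tissue library left out, edgeR gave an adjusted p of 0.0808 for Srebf1 and 0.0961 for Mlxipl.

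In the supply of acetyl-CoA and NADPH, 0 of 4 genes were called at G14.5 and 2 of 4 rose at P7L, against G0 and against G14.5 alike. Acss2, which makes acetyl-CoA from acetate, had 101 and 93.2 CPM in the G0 libraries, 130.3 and 103 CPM in those of G14.5 and 191 and 209 CPM in those of P7L. Me1, the cytosolic malic enzyme that supplies NADPH, had 256 and 268 CPM in the G0 libraries, 248 and 255 CPM in those of G14.5 and 540.1 and 423 CPM in those of P7L. For both genes the P7L libraries lay above the other 4, and G0 and G14.5 were close to each other. Against G0 at P7L the log2 fold change was 1.05 ± 0.16 for Acss2 (SE, edgeR adjusted p = 0.0284) and 0.87 ± 0.15 for Me1 (edgeR adjusted p = 0.0317). Against G14.5 the values were 0.79 ± 0.16 (SE, edgeR adjusted p = 0.0280) and 0.93 ± 0.15 (edgeR adjusted p = 0.01). Leaving out either P7L library ended the Acss2 calls and the Me1 call against G0, and leaving out the P7L perfusion library ended both Me1 calls (edgeR adjusted p = 0.304 against G0 and 0.141 against G14.5). Without the G0 perfusion library the Me1 value against G0 was 0.0645. Against G14.5, edgeR gave Acss2 an adjusted p of 0.0624 without the G14.5 perfusion library and 0.210 without the liver tissue one, and Me1 0.0756 without the perfusion library. Of the Acss2 gene body, 49.4% is shared with other genes, among them Gss and Ggt7 on the other strand, and strand use in the counting is not given in the sources used here.

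Acly, which splits cytosolic citrate into acetyl-CoA, had 117 and 93.2 CPM in the G0 libraries, 193 and 90.4 CPM in those of G14.5 and 222 and 153 CPM in those of P7L. Its P7L and G0 libraries did not overlap, but the change did not pass the test (0.81 ± 0.20 SE on the log2 scale, edgeR adjusted p = 0.0819). Slc25a1, the mitochondrial citrate carrier, ranged from 16.5 to 23.4 CPM over the 6 libraries with no call.

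Of the 3 genes of fatty acid synthesis, 1 rose at G14.5, the carboxylase gene Acacb, and 1 rose at P7L against G14.5, Fasn. Acacb encodes the carboxylase at the mitochondrial outer membrane, whose malonyl-CoA is known to hold back fatty acid oxidation. It had 201 and 234 CPM in the G0 libraries, 646 and 504 CPM in those of G14.5 and 390.0 and 285 CPM in those of P7L. Both G14.5 libraries lay above the other 4 (1.39 ± 0.18 SE on the log2 scale, edgeR adjusted p = 0.00472; 2.61-fold for G14.5 against G0). P7L was below G14.5 (-0.77 ± 0.18 SE on the log2 scale, edgeR adjusted p = 0.0391), a call that was lost when any 1 of the 4 libraries of those stages was left out (edgeR adjusted p = 0.0901 to 0.311). Acaca, the cytosolic carboxylase of fatty acid synthesis, had 891 and 893 CPM in the G0 libraries, 781 and 657 CPM in those of G14.5 and 1006 and 784 CPM in those of P7L. It had no call in any comparison, and the difference of G14.5 from G0 was -0.32 (95% interval -0.61 to -0.03, edgeR adjusted p = 0.141).

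Fasn, the fatty acid synthase gene, had 44.5 and 38.1 CPM in the G0 libraries, 43.4 and 28.2 CPM in those of G14.5 and 86.7 and 58.2 CPM in those of P7L. P7L lay above G14.5 in each preparation (1.02 ± 0.20 SE on the log2 scale, edgeR adjusted p = 0.0232), and the change of P7L against G0 was not called (0.78 ± 0.20 SE on the log2 scale, edgeR adjusted p = 0.0872). Leaving out any 1 of the 4 libraries of P7L and G14.5 ended the call (edgeR adjusted p = 0.0961 to 0.255), as did a fit without the term for preparation.

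In elongation and desaturation, Elovl6 and Scd1 were highest in lactation and Scd1 fell at G14.5. Elovl6, which elongates palmitate to stearate, had 216 and 302 CPM in the G0 libraries, 313 and 204 CPM in those of G14.5 and 760.1 and 695 CPM in those of P7L. The P7L libraries were above the other 4, which overlapped each other. It rose 2.79-fold at P7L against G0 (1.48 ± 0.24 SE on the log2 scale, edgeR adjusted p = 0.0301) and 2.83-fold against G14.5 (1.5003 ± 0.24 SE on the log2 scale, edgeR adjusted p = 0.0106). The call against G0 was lost without either P7L library (edgeR adjusted p = 0.118 without liver tissue and 0.148 without perfusion), and the call against G14.5 without the P7L perfusion library (0.0647).

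Scd1, the desaturase that makes oleate, had 181 and 311 CPM in the G0 libraries, 78.3 and 138 CPM in those of G14.5 and 464 and 434 CPM in those of P7L. No stage overlapped another, in the order G14.5, G0, P7L from low to high. It fell 2.28-fold at G14.5 against G0 (-1.19 ± 0.23 SE on the log2 scale, edgeR adjusted p = 0.0196) and rose 4.38-fold at P7L against G14.5 (2.13 ± 0.24 SE on the log2 scale, edgeR adjusted p = 0.00262). P7L against G0 was not called (0.94 ± 0.23 SE on the log2 scale, edgeR adjusted p = 0.0796). The fall at G14.5 was not called without the G0 liver tissue library (edgeR adjusted p = 0.0723) or without the G14.5 perfusion library (0.108), whereas P7L against G14.5 was called under every alternative.

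Elovl1, an elongase of very long saturated chains, had 4.16 and 6.03 CPM in the G0 libraries, 17.1 and 11.8 CPM in those of G14.5 and 11.9 and 13.3 CPM in those of P7L. The G14.5 and P7L libraries all lay above those of G0, and only G14.5 against G0 passed (1.51 ± 0.38 SE on the log2 scale, edgeR adjusted p = 0.0455). That call was lost in 12 of 17 alternatives, among them leaving out the G0 perfusion library (edgeR adjusted p = 0.124), the G14.5 perfusion library (0.260), the G14.5 liver tissue library (0.0789) or either P7L library (0.0816 without perfusion and 0.0824 without liver tissue).

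Glycerolipid synthesis had 1 of 6 tested genes higher and 1 lower at G14.5, and 2 higher at P7L against G0. Gpam, the mitochondrial enzyme that adds the first acyl chain to the glycerol backbone, had 71.5 and 86.8 CPM in the G0 libraries, 179 and 139.9 CPM in those of G14.5 and 196 and 166 CPM in those of P7L. Both later stages lay above G0 (1.00 ± 0.19 SE on the log2 scale, edgeR adjusted p = 0.0181 at G14.5; 1.18 ± 0.19, edgeR adjusted p = 0.0295 at P7L) and overlapped each other. Without the G14.5 perfusion library edgeR gave an adjusted p of 0.101 for the first of these, and 0.198 for the second without the P7L perfusion library or 0.113 without the P7L liver tissue library.

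Lpin1 encodes a phosphatidate phosphatase that makes diacylglycerol and also acts in the nucleus as a transcriptional coactivator. It had 462 and 465 CPM in the G0 libraries, 256 and 196 CPM in those of G14.5 and 862 and 762 CPM in those of P7L. The pairs were close and no stages overlapped, with G14.5 lowest and P7L highest. It fell 2.07-fold at G14.5 against G0 (-1.05 ± 0.13 SE on the log2 scale, edgeR adjusted p = 0.00446). P7L was 3.61-fold above G14.5 (1.85 ± 0.14 SE on the log2 scale, edgeR adjusted p = 0.000538) and 1.75-fold above G0 (0.80 ± 0.13 SE on the log2 scale, edgeR adjusted p = 0.0317). The first 2 calls held under every alternative, and the third was lost without either P7L library or the G0 perfusion library (edgeR adjusted p = 0.221 without P7L perfusion, 0.187 without P7L liver tissue and 0.0532 without G0 perfusion).

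Dgat1 and Dgat2 encode the enzymes of the last step, from diacylglycerol to triglyceride, and neither was called. Dgat1 had 37.8 and 21.3 CPM in the G0 libraries, 30.6 and 35.7 CPM in those of G14.5 and 64.6 and 60.5 CPM in those of P7L, with both P7L libraries above the other 4 (1.11 ± 0.29 SE on the log2 scale, edgeR adjusted p = 0.0867 against G0). With the nucleus holding most of a gene's reads taken out of each library, Dgat1 passed at P7L against G0 (1.498, edgeR adjusted p = 0.0126) and against G14.5 (1.09, edgeR adjusted p = 0.0155). In that fit more of all genes passed too, 7.25% and 13.1%, against 2.92% and 9.26% in the main fit. Dgat2 stayed between 355 and 567 CPM in all libraries. Agpat3, an acyltransferase of phosphatidic acid synthesis, stayed between 139.5 and 216 CPM, and Mogat1, a monoacylglycerol acyltransferase, had at most 1.69 CPM.

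Of the genes of VLDL lipidation, Tm6sf2, an endoplasmic reticulum protein needed to load lipid onto VLDL, rose at G14.5. It had 10.2 and 11.1 CPM in the G0 libraries, 28.4 and 30.3 CPM in those of G14.5 and 13.6 and 7.99 CPM in those of P7L. Both G14.5 libraries lay above the other 4, with log2 fold changes of 1.46 ± 0.33 for G14.5 against G0 (SE, edgeR adjusted p = 0.0328) and -1.47 ± 0.33 for P7L against G14.5 (edgeR adjusted p = 0.0383). Leaving out either G14.5 library ended the first call (edgeR adjusted p = 0.0877 without perfusion and 0.222 without liver tissue), as did leaving out the G0 perfusion library (0.0848). The second was lost without any 1 of the 4 libraries of G14.5 and P7L (0.0837 to 0.359). Mttp, the transfer protein that lipidates apolipoprotein B, had 159.5 and 181 CPM in the G0 libraries, 213 and 151 CPM in those of G14.5 and 248 and 205 CPM in those of P7L with no call.

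Among the 7 droplet protein genes, Plin2 rose and Hsd17b13 fell at G14.5, and Hsd17b13 rose again in lactation. Plin2, the main droplet coat of hepatocytes, had 154 and 126 CPM in the G0 libraries, 289 and 286 CPM in those of G14.5 and 222 and 189 CPM in those of P7L. The G14.5 libraries lay above all others (1.05 ± 0.14 SE on the log2 scale, edgeR adjusted p = 0.00492; 2.06-fold), a call that held under every alternative. P7L against G0 was 0.56 ± 0.14 (SE, edgeR adjusted p = 0.0798) and P7L against G14.5 was -0.49 ± 0.14 (edgeR adjusted p = 0.0721), neither called.

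Hsd17b13 encodes a droplet-bound hydroxysteroid dehydrogenase of hepatocytes. It had 245 and 234 CPM in the G0 libraries, 65.1 and 46.4 CPM in those of G14.5 and 348 and 261 CPM in those of P7L. Both G14.5 libraries lay far below the other 4, while P7L lay above G0 in each preparation by less than the test could call (edgeR adjusted p = 0.269). It fell 4.36-fold at G14.5 against G0 (-2.13 ± 0.16 SE on the log2 scale, edgeR adjusted p = 0.000522) and was 5.47-fold higher at P7L than at G14.5 (2.45 ± 0.16 SE on the log2 scale, edgeR adjusted p = 0.000366), and both calls held under every alternative. The summed level of 11 periportal marker genes was also lowest at G14.5, with 3941 and 4162 CPM at G0, 3339.8 and 2502 CPM at G14.5, with 7716 and 6024 CPM at P7L. The sum of 11 pericentral markers (of which Oat is listed at 0) was 2599 and 2147 CPM at G0, 1125 and 1377 CPM at G14.5, with 1894 and 2206 CPM at P7L. Between G0 and G14.5 single markers did not all follow their sum. Periportal Hal fell from 353 and 454 to 195 and 130 CPM. Cdh1, also periportal, rose from 13.9 and 23.4 to 70.7 and 60.6 CPM, and Asl fell in liver tissue only. Pericentral Cyp2e1 fell from 1484 and 1261 to 370 and 365 CPM. Slc1a2, also pericentral, rose from 359 and 244 to 378 and 546 CPM. The sums thus do not show a shift shared by all markers. These marker levels are plain CPM, unlike the TMM-scaled library levels of Hsd17b13. The part of these marker changes in the Hsd17b13 result was not tested. Nuclei were also ranked within each library by an index of pericentral minus periportal markers. Within the periportal tertile of nuclei Hsd17b13 had 136 and 106 CPM at G14.5, against 516 and 445 CPM at G0. Within the pericentral tertile it had 6.80 and 12.6 CPM at G14.5, against 20.04 and 39.4 CPM at G0.

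The other 5 droplet genes had no call. Plin4 had 4.39 and 4.70 CPM in the G0 libraries, 1.46 and 1.60 CPM in those of G14.5 and 3.23 and 3.15 CPM in those of P7L. Its level was lowest at G14.5 in both preparations (-1.57 ± 0.50 SE on the log2 scale, edgeR adjusted p = 0.0831). Plin4 passed without the nucleus that held most reads of a gene in each library (-1.63, edgeR adjusted p = 0.0455). In that fit 17.7% of all genes passed, against 11.9% in the main fit. Plin5, which ties droplets to mitochondria, ranged from 11.9 to 16.9 CPM and Cidec, which drives droplet growth, from 22.6 to 34.3 CPM. Cideb, which takes part in VLDL lipidation, had 7.49 and 7.17 CPM in the G0 libraries, 17.5 and 10.3 CPM in those of G14.5 and 16.3 and 10.7 CPM in those of P7L, but it shares 76.3% of its exon bases with Nop9 on the other strand, so its counts are uncertain. Cidea was at or below 0.232 CPM throughout.

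Of the lipases, Lipc had the largest change of the tested lipid genes between P7L and G14.5. It encodes hepatic lipase, which hepatocytes secrete to act on lipoproteins in the liver sinusoids. It lies on chromosome 9 from 70798128 to 70952226 (GRCm38, minus strand). It had 514 and 562 CPM in the G0 libraries, 2912 and 2628 CPM in those of G14.5 and 169 and 179 CPM in those of P7L. The pairs were close, and no stages overlapped. It rose 5.15-fold at G14.5 against G0 (2.37 ± 0.12 SE on the log2 scale, edgeR adjusted p = 0.000132) and at P7L was 15.9-fold below G14.5 (-3.99 ± 0.13 SE on the log2 scale, edgeR adjusted p = 3.62e-05) and 3.09-fold below G0 (-1.63 ± 0.12 SE on the log2 scale, edgeR adjusted p = 0.00305). The calls against G14.5 and of G14.5 against G0 held under every alternative, and the call of P7L against G0 was lost on the authors' values with a pseudocount of 1 (limma adjusted p = 0.0522).

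Lpl, the lipase that frees fatty acids from circulating triglyceride in adipose tissue, muscle and mammary gland, was low at all stages. It had 0.863 and 0.759 CPM in the G0 libraries, 3.99 and 5.29 CPM in those of G14.5 and 1.18 and 1.04 CPM in those of P7L. G14.5 was higher than G0 (2.52 ± 0.58 SE on the log2 scale, edgeR adjusted p = 0.0336), but 40.96 and 54.1% of its G14.5 reads lay in 1 nucleus of each library. At G0 the nucleus with most Lpl reads held 77.0 and 24.4% of them. With the nucleus holding most reads of a gene taken out of every library, the log2 fold change was 2.70 (edgeR adjusted p = 0.026). That removal lowered G0 as well as G14.5. In that fit 17.7% of all genes passed, against 11.9% in the main fit. Nuclei with a read made up 12.6 and 12.5% at G14.5, against 11.4 and 9.52% at G0. The call was lost in 8 of 17 alternatives, among them leaving out any 1 of the 6 libraries (edgeR adjusted p = 0.0618 to 0.196). Macrophage markers, in plain CPM without TMM scaling, summed to 5.67 and 12.3 CPM at G14.5, against 5.86 and 12.5 CPM at G0. Their part in the Lpl reads was not tested. Pnpla2, the adipose triglyceride lipase, ranged from 6.72 to 12.4 CPM with no call.

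**Figure D3:**
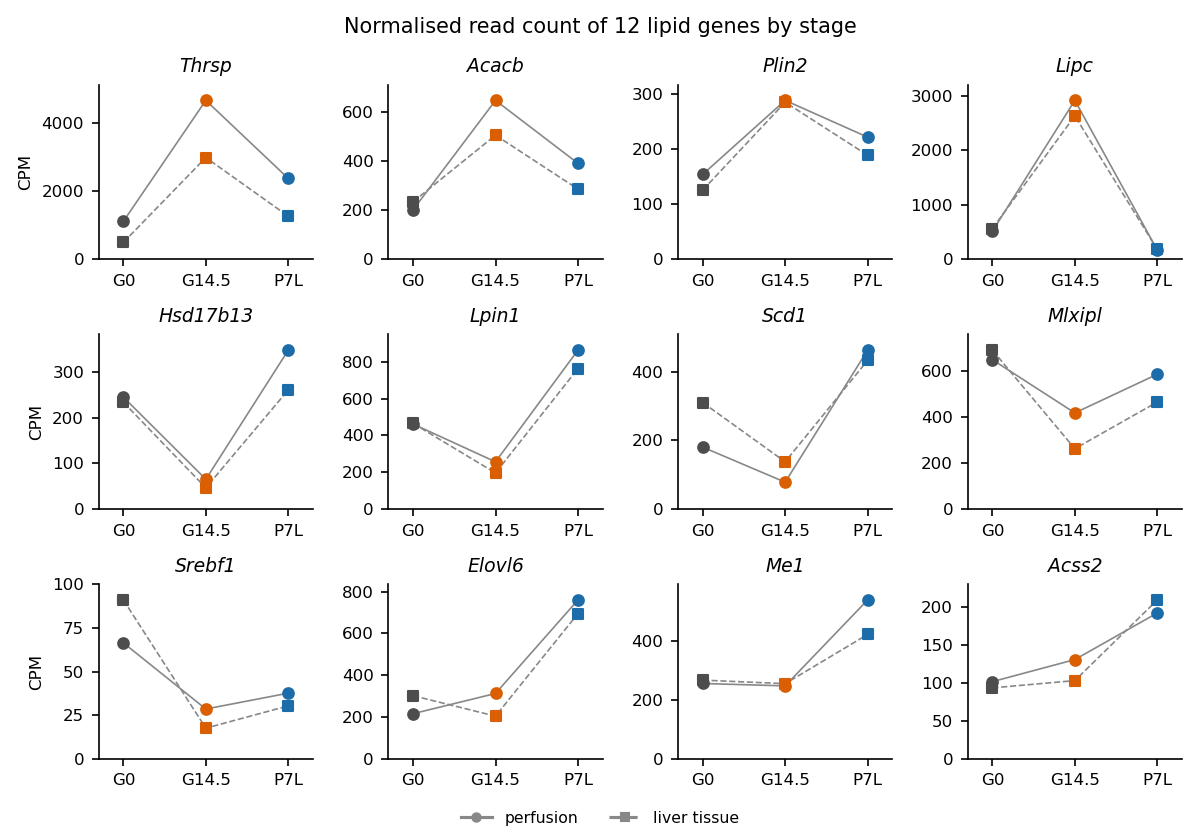
Normalised read count (CPM, linear axis from 0) of 12 lipid genes at G0, G14.5 and P7L; each line is 1 preparation, with circles for perfusion and squares for liver tissue. Thrsp, Acacb, Plin2 and Lipc peak at G14.5, Hsd17b13, Lpin1, Scd1, Mlxipl and Srebf1 are lowest there, and Elovl6, Me1 and Acss2 are highest at P7L.

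Between preparations, 0 of the 31 lipid genes and 0 of 15015 genes (0.0%) differed by edgeR between perfusion and liver tissue libraries. At an unadjusted edgeR p under 0.05 there were 5 of the 31 lipid genes and 707 of the 15015 genes. Of the 31 lipid genes, 24 were higher in perfusion, with a median log2 difference of 0.18, against 0.01 over all genes. DESeq2 called 87 genes (0.628%), none of them a lipid gene. Thrsp was higher in perfusion at all 3 stages, with a log2 difference of 0.91 ± 0.11 (SE, edgeR adjusted p = 0.444).

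The libraries also show how the reads were spread over nuclei. For Lipc the interquartile ranges of G14.5 did not overlap those of the other stages. The median nucleus had 417 and 381 CPM at G0, 2466 and 2353 CPM at G14.5, with 95.4 and 129 CPM at P7L. The top decile of nuclei held 18.02 and 19.1% of the Lipc CPM summed over nuclei at G14.5, against 31.4 and 32.4% at G0. At P7L that share was 37.3 and 35.8%. By this share, Lipc was spread most evenly over nuclei at G14.5, the stage with its highest level. The part of the level in this share was not tested.

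Scd1 was the most uneven of the 6 genes plotted, by the share of summed CPM in the top decile of nuclei of each library. Its median nucleus had 24.6 and 76.1 CPM at G0, 6.00 and 20.6 CPM at G14.5, with 241 and 354 CPM at P7L. The top decile of nuclei held 71.4 and 73.6% of the summed Scd1 CPM at G0, 78.9 and 63.1% at G14.5, with 42.2 and 38.1% at P7L. In lactation Scd1 had reads in 298 of 298 and 308 of 308 nuclei. At G14.5 its share of nuclei with a read was 88.4 and 98.2%, against 86.4 and 87.7% at G0. After thinning to 250000 reads these shares were 67.3 and 88.4% at G14.5, against 75.1 and 77.6% at G0, lower in perfusion and higher in liver tissue.

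Hsd17b13 had reads in fewer nuclei at G14.5 than at G0. Nuclei with a read made up 76.4 and 71.4% at G14.5, against 98.9 and 94.8% at G0 (exact 95% intervals 71.2% to 81.1% and 65.0% to 77.2% at G14.5). After thinning every nucleus to 250000 reads (35 nuclei had fewer and were dropped), the shares were 62.7 and 59.4% at G14.5, against 87.3 and 91.98% at G0. Its median nucleus had 8.08 and 5.22 CPM at G14.5, against 111 and 162 CPM at G0. Thrsp had medians of 177 and 101 CPM at G0, 3226 and 1858 CPM at G14.5, with 1878 and 931 CPM at P7L, and reads in every nucleus at G14.5 and P7L.

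**Figure D4:**
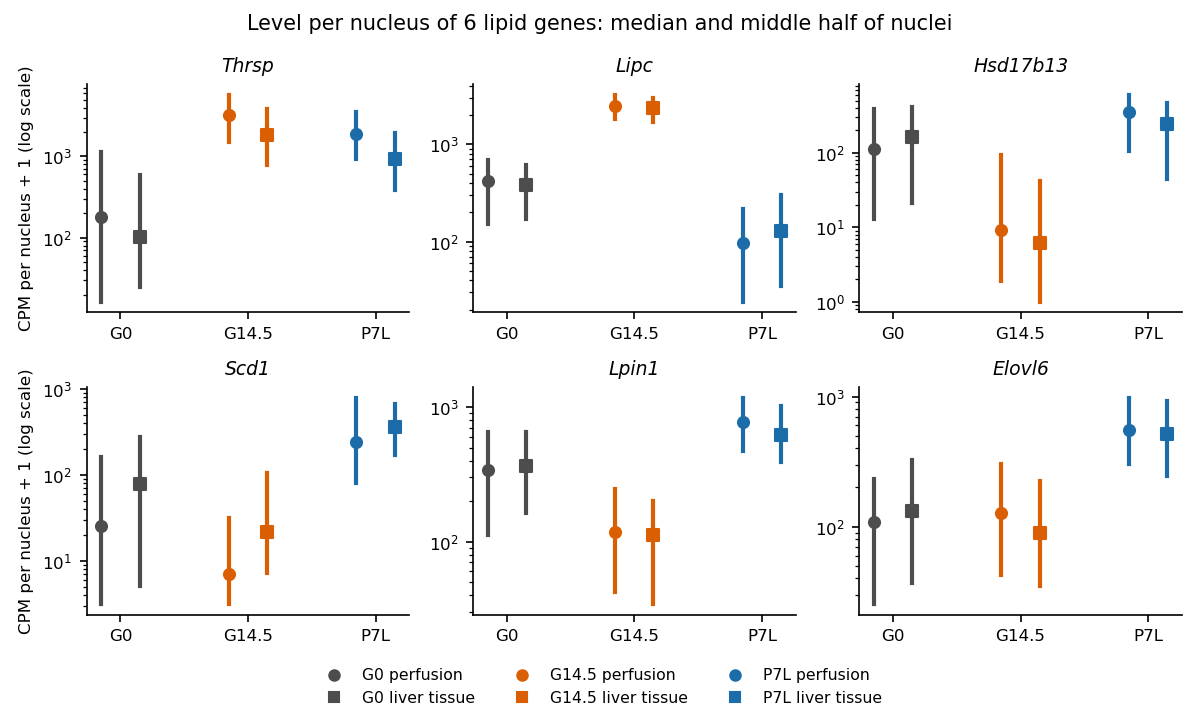
CPM per nucleus plus 1 (log scale) for 6 lipid genes; points are the median over the nuclei of a library and bars the interquartile range over nuclei, with circles for perfusion and squares for liver tissue. The G14.5 bars of Lipc lie wholly above those of the other stages, and the bars of Scd1 are wide at G0 and high at P7L.

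Lobule position was described without a test, from the pericentral (highest) and periportal (lowest) tertile of the marker index in each library. Between 7 and 22 nuclei per library lay near a cut between tertiles. Of the 31 genes, 8 were lower in the pericentral tertile in 6 of 6 libraries, 1 (Lpl) was higher in 6 of 6, and 22 were mixed. Of all 15015 genes tested, 4.73% were lower and 5.57% higher pericentrally in 6 of 6 libraries. The 8 were Hsd17b13 (median log2 ratio -3.39, range -4.69 to -2.63), Acly (-2.37, -3.53 to -1.78), Acaca (-1.51, -1.81 to -0.90), Fasn (-1.24), Elovl6 (-1.17), Lpin1 (-1.09), Srebf1 (-0.82) and Me1 (-0.42). With an index made from summed marker reads 7 of the 8 kept this pattern, all but Me1. The 8 include the citrate lyase, the cytosolic carboxylase and the synthase, which act one after another. Of the 8, Hsd17b13, Lpin1 and Srebf1 were called lower at G14.5 against G0.

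Acly illustrates the size of the difference. At G14.5 it had 30.6 and 14.9 CPM in the pericentral tertile, against 328 and 172 CPM in the periportal tertile. At P7L it had 106 and 62.96 CPM in the pericentral tertile, against 363 and 278 CPM in the periportal tertile. Scd1 and Thrsp were lower pericentrally in 5 of 6 libraries, and Lipc split 3 to 3 (-0.25 to 1.01). The Lpl ratio rests on few nuclei: 16 and 6 pericentral nuclei had a read at G14.5, against 12 and 10 periportal ones.

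**Figure D5:**
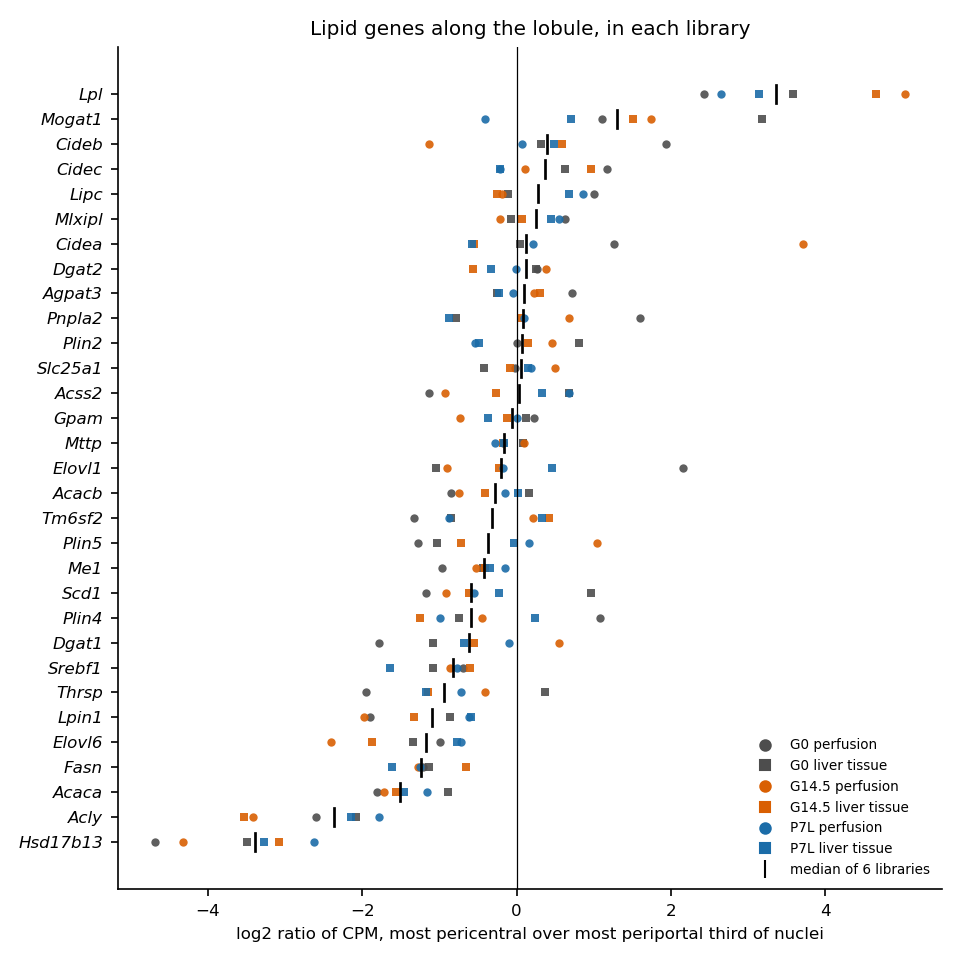
Log2 ratio of CPM in the pericentral over the periportal tertile of nuclei for 31 lipid genes; each point is 1 library, coloured by stage, with circles for perfusion and squares for liver tissue, and black bars are medians. All 6 points of Hsd17b13, Acly, Acaca, Fasn, Elovl6, Lpin1, Srebf1 and Me1 lie left of 0 and all 6 of Lpl right of it.

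Within libraries, 20 genes had reads in at least 50% of the nuclei of every library, and their 190 pairs were ranked by the mean Spearman correlation over nuclei, as a description. The median was 0.07. Acly and Acaca came first at 0.48 (0.35 to 0.55) (range over libraries), then Acly and Hsd17b13 at 0.47 (0.38 to 0.57) and Acaca and Hsd17b13 at 0.41 (0.32 to 0.47). Nuclei of 1 library share a depth range and a span of lobule positions, and all 3 genes were lower pericentrally. The lowest mean was -0.16 (-0.45 to 0.33), for Scd1 and Lipc, whose sign differed between libraries.

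A list of 62 other genes of the pathway, also chosen with earlier results of these data known, had 58 rows in the table and 53 tested genes. Values below are log2 fold changes ± SE, each called at an edgeR adjusted p under 0.05. At G14.5 against G0, 13 were higher and 7 lower (median log2 fold change 0.07). That is 37.7%, against 11.9% of all genes tested. The largest rise was in Pnpla3, a droplet acyltransferase and lipase. Pnpla3 had 1105 and 1029 CPM at G14.5, against 55.7 and 34.1 CPM at G0 (4.62 ± 0.19 SE on the log2 scale, edgeR adjusted p = 4.58e-05). Abhd5, the coactivator of Pnpla2 at the droplet (1.64 ± 0.22), and Acsl5, an acyl-CoA synthetase (1.61 ± 0.18), also rose, and Ppargc1b, a coactivator of the SREBP proteins (-2.35 ± 0.21), and the carboxylesterase Ces1d (-1.76 ± 0.14) fell. With G14.5 liver tissue left out, 12 of the 53 passed in place of 20.

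At P7L against G0, 3 of these 53 were higher (Pnpla3 at 1.16 ± 0.16, Scap at 0.82 ± 0.16 and Slc27a5 at 0.80 ± 0.14) and 2 lower (Ces3a at -1.14 ± 0.19 and Insig1 at -0.92 ± 0.11). That is 9.43%, against 2.92% of all genes tested, with a median of 0.21. Scap and Insig1 encode the escort and the anchor of SREBP in the endoplasmic reticulum. By edgeR the number called was 0 of 53 with P7L perfusion left out (12 at an unadjusted p under 0.05) and 1 with P7L liver tissue left out. Between P7L and G14.5, 8 were higher and 9 lower (32.1%, against 9.26% of all genes tested, median 0.06). Mogat2 (2.69 ± 0.60), Ppargc1b (2.32 ± 0.21) and Ces1d (2.23 ± 0.15) led the rises. Pnpla3 (-3.46 ± 0.18), the acyl-CoA synthetase gene Acsl1 (-1.87 ± 0.14) and the elongase gene Elovl5 (-1.56 ± 0.23) led the falls. That count of 17 was 10 without the liver tissue library of G14.5, and 9 without its perfusion library or without either P7L library.

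The hepatocyte label was checked against 10 markers, which summed to 14972 to 18101 CPM (plain CPM, as for all markers). Adipocyte markers, listed because fat cells also hold Plin4, Cidea, Cidec and Lpl, summed to 5.71 and 9.46 CPM at G0, 2.76 and 3.36 CPM at G14.5, with 7.87 and 14.45 CPM at P7L. Adrb3 was the largest part in 5 of 6 libraries, and Retn (2.11 of 3.36 CPM) in the liver tissue library of G14.5. Adipoq, Lep and Plin1 were at or below 0.132 CPM. Summed markers of endothelial cells were 10.8 to 34.7 CPM, of stellate cells 10.96 to 30.4 CPM (Lrat at 0) and of cholangiocytes 1.201 to 7.68 CPM. Those of lymphocytes were 0.990 to 2.53 CPM (Ms4a1 at 0) and of erythroid cells 0.373 to 10.2 CPM. Mammary epithelium markers summed to at most 0.0907 CPM, with the milk genes Csn3 and Lalba at 0. The pericentral hepatocyte marker Oat was also at 0. Overlap of these markers with other gene bodies is not given here, so their zeros give no level.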

How the data were processed

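One deposited table gives counts of reads (not molecules) for each gene in each nucleus. The submitters' processing notes name Trimmomatic 0.39, HISAT2 2.1.0, featureCounts 1.5.3 and the builds GRCm38 and mm10. Strand use, the counted feature (exon or gene body) and nucleus filters are not given in the sources used here. A deposited table of TPM-like values by the authors scales each nucleus to 100000 without Alb, Apoa2 and Fabp1 (worked out from the values) and was used only for rank and as an alternative. The 92 ERCC rows held 0 reads. No nucleus was filtered out and doublets were not called.

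Reads were summed per library. Genes passing filterByExpr by stage, and with reads in 5% or more of nuclei in 2 or more libraries, were tested (15015 genes) with edgeR 4.0.16 in R 4.3.3 (quasi-likelihood F test, robust, TMM), with terms for stage and preparation, all 6 libraries, two-sided, Benjamini-Hochberg adjusted p under 0.05. The residual degrees of freedom were 2 and the prior ones 5.13. Liver tissue is replicate 1 and perfusion replicate 2 of each stage. Where 1 library is left out, the lone library is assumed to vary like the others. Alternatives used limma 3.58.1, DESeq2 1.42.0, other scalings and filters, and thinning to 250000 reads. Removing the top nucleus of each gene was added after seeing the data.

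The genes, lists and markers were chosen with earlier results of these data known. Genes called in at least 1 stage comparison are given in full and the rest by range. Genes singled out beyond that, and promoters, were chosen after their values were seen. Intervals over nuclei are exact Clopper-Pearson 95% intervals and cover counting error only. Reads were not collapsed to molecules.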

Additional observations from a re-analysis of the deposited data

Results flagged for a closer look

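Cidea, a droplet protein gene of brown fat that is near zero in these nuclei, differed in direction between preparations at G14.5 against G0. The log2 fold change was 1.01 between the perfusion libraries and -0.79 between the liver tissue libraries, and the difference was not tested. Its reads numbered 80 and 16 at G14.5 (perfusion before liver tissue), against 29 and 25 at G0, and 61.3% of the 80 reads lay in 1 nucleus. No group had 4 or more libraries, so no single library could be examined as standing apart by Dixon's rule.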

How the results depend on the processing

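Under all 17 alternatives, 5 of the 13 lipid genes called at G14.5 against G0 stayed called (Acacb, Lpin1, Plin2, Hsd17b13 and Lipc), 0 of the 7 at P7L against G0, and 4 of the 11 at P7L against G14.5 (Scd1, Lpin1, Hsd17b13 and Lipc). No called gene changed sign. The numbers of lipid genes called with 1 library left out ran from 8 to 11 at G14.5 against G0, from 1 to 9 at P7L against G0 and from 5 to 16 at P7L against G14.5, and of other pathway genes from 12 to 21, 0 to 6 and 9 to 23. At P7L against G0, where 7 lipid genes and 5 other pathway genes were called, filterByExpr alone gave 2 and 1, DESeq2 13 and 11, and limma on the authors' values with a pseudocount of 1 gave 0 and 0 (18 and 18 at an unadjusted p under 0.05). For the other pathway genes there, no filter gave 2, the authors' values with a pseudocount of 0.1 gave 1, and leaving out the top nucleus of each gene gave 9. At G14.5 against G0 the authors' values with a pseudocount of 1 gave 12 other pathway genes. Over all genes tested, P7L against G0 gave 438 calls by edgeR and 1901 by DESeq2, and 4 on the authors' values with a pseudocount of 1. The cause of these shifts was not tested.

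Without the replicate block (the term for preparation), lipid genes called numbered 13, 6 and 10, other pathway genes 19, 6 and 18, and Thrsp lost its calls of P7L against G0 and against G14.5, which DESeq2 did not make either. The deviations of preparations correlated by 0.01, 0.00 and 0.11 between stages, so replicate numbers share a preparation but gave no sign of pairing. Splitting the position index at its median, not in tertiles, gave 3 genes higher pericentrally in every library in place of 1, and the 8 lower in every library stayed so. An index of summed marker reads kept 7 of those 8, without Me1. With 2 libraries per stage and 2 residual degrees of freedom, a gene without a call may still differ.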
